A study of Macaca mulatta with 24 samples.

Results

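Adenosine deaminase (ADA), purine nucleoside phosphorylase (PNP), xanthine dehydrogenase (XDH) and the ectonucleotidase NT5E form the main route by which the gut breaks down purine nucleosides, and their transcripts were followed here in the jejunum of rhesus macaques after total-body irradiation (TBI). The members were chosen by name. Every probe whose gene symbol in the authors' jejunum table was ADA, PNP, XDH or NT5E was taken, which gave 8 of the 43603 probes on the array, 3 of the 4 enzymes and 3 of the 16094 gene symbols in the table. ADA and PNP had 2 probes each, NT5E had 4, and no probe carried the symbol XDH, so XDH was not analysed here. The low ADA of the day 4 group at 7.4 Gy was known when the set was chosen. The values of ADA against control are therefore given as a description, with no test.

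NT5E, also called CD73, sits on the outer face of the cell membrane and removes the phosphate of AMP, which gives adenosine. ADA turns adenosine and deoxyadenosine into inosine and deoxyinosine, inside cells and, bound to DPP4, on their surface. PNP splits inosine and guanosine into a free base and a sugar phosphate. XDH oxidises hypoxanthine, the base of inosine, to xanthine and xanthine to uric acid, and guanine reaches xanthine through GDA. Adenosine outside the cell signals through its own receptors, and loss of ADA by mutation causes severe combined immunodeficiency because deoxyadenosine is toxic to lymphocytes. In the human and mouse gut ADA is most abundant in the epithelium of the duodenum and proximal small bowel.

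The 24 arrays held RNA from the jejunum of 24 young adult male macaques, 1 array for each animal, without pooling. The control group (n = 4) was sham-irradiated (0 Gy) and is labelled as day 4. The other groups received a single dose of cobalt-60 gamma radiation over the whole body, of 6.7 Gy or of 7.4 Gy, and were sampled on day 4 (n = 4 at each dose), day 7 (n = 4 at each dose) or day 12 (n = 2 at each dose). No control was taken on day 7 or 12, so all 6 irradiated groups were set against the same 4 controls and these comparisons are not independent of each other. The RNA came from a whole piece of bowel, in which fewer cells of a type and less RNA per cell cannot be told apart. A level is the log2 signal of a probe relative to the 75th percentile of its array, so 1 unit is a 2-fold difference. Levels of different probes cannot be compared with each other.

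The arrays differed in sensitivity. An array detected, as a signal well above background, between 39.4% and 87.7% of its probes, and the share was lowest on the arrays of slide 5, which held no control. All 24 arrays detected both ADA probes and both PNP probes. The brightest NT5E probe was detected on 23 arrays, the second on 19, the third on 15 and the fourth on 0. Tests were run on the 28171 probes that at least 1 group detected on each of its arrays, among them 6 of the 8 probes of the members, with the 2 dimmest NT5E probes left out. A probe was called at a limma adjusted p under 0.05 over all tested probes and a change of 2-fold or more.

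ADA lay below all 4 controls on 18 of the 20 irradiated arrays at its brightest probe and on 19 at its second. Its group means on day 4 were 12.0-fold lower after 6.7 Gy and 10.4-fold lower after 7.4 Gy, and it was as low on day 12. The brightest ADA probe (A_01_P001661) had levels of 6.44, 3.66, 3.99 and 5.51 on the 4 control arrays. Day 4 arrays after 6.7-Gy TBI had 1.00, 1.22, 1.45 and 1.58, and those after 7.4-Gy TBI had 1.39, 1.23, 1.40 and 2.06. All 8 day 4 arrays lay below the lowest control, and the 2 doses overlapped. The spread also differed: the SD was 1.31 among the controls, against 0.25 after 6.7 Gy and 0.37 after 7.4 Gy on day 4.

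The day 7 groups were split. After 6.7-Gy TBI the levels of ADA were 0.72, 3.67, 0.57 and 1.25, and after 7.4-Gy TBI they were 0.99, 0.37, 4.92 and 1.10. In each group 3 arrays lay within or below the day 4 range of that dose and a single array, replicate 2 after 6.7 Gy and replicate 3 after 7.4 Gy, lay within the control range, the first of them by 0.01 log2. On day 12 the levels were, after 6.7 Gy, 1.10 and 0.56, and after 7.4 Gy, 1.40 and 0.11, all far below the lowest control of 3.66.

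**Figure D1:**
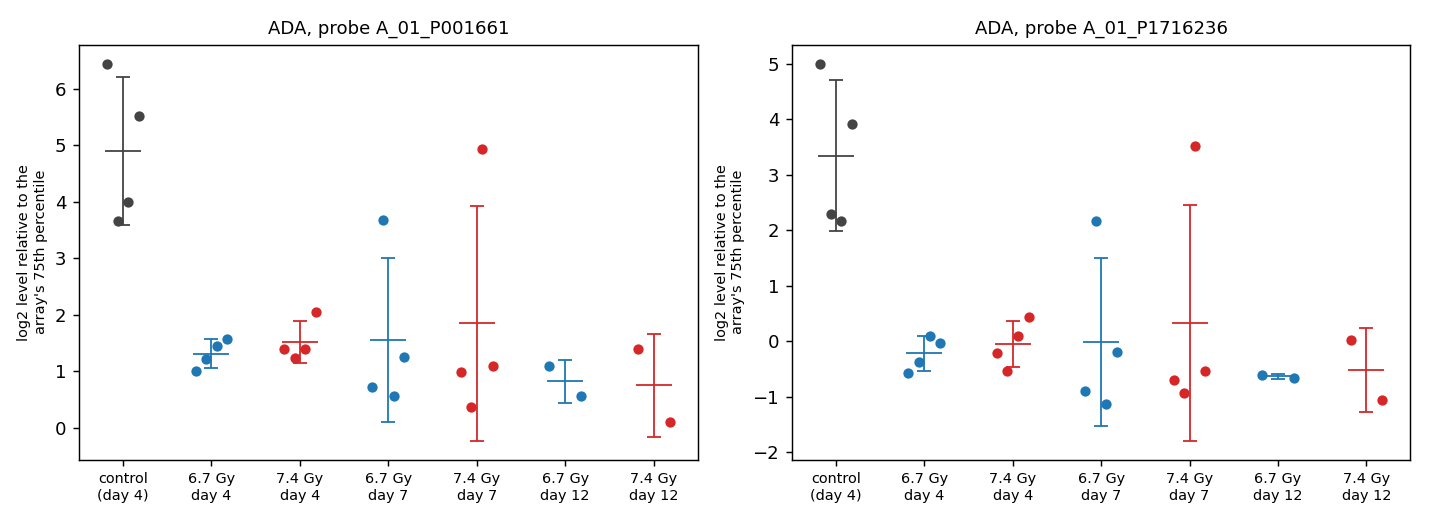
Level of the 2 ADA probes on each array (points), in log2 units relative to the array's 75th percentile, by group, with the group mean (bar) and SD (whiskers); n = 4 per group, 2 on day 12. The 4 controls sit between 3.66 and 6.44 at the brightest probe, and 18 of the 20 irradiated arrays sit below them, the exceptions being 1 day 7 array of each dose.

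The mean level of ADA was 4.90 ± 1.31 (SD, n = 4) in the controls. After 6.7 Gy it was 1.31 ± 0.25 on day 4, 1.55 ± 1.44 on day 7 and 0.83 ± 0.38 on day 12. After 7.4 Gy it was 1.52 ± 0.37 on day 4, 1.85 ± 2.08 on day 7 and 0.75 ± 0.91 on day 12. Against control this was a difference of -3.59 ± 0.56 (SE, 12.0-fold lower) after 6.7 Gy and -3.38 ± 0.57 (10.4-fold lower) after 7.4 Gy on day 4. On day 7 the differences were -3.35 ± 0.79 (10.2-fold lower) and -3.05 ± 1.01 (8.30-fold lower). On day 12 they were -4.07 ± 0.76 (16.8-fold lower) and -4.15 ± 0.83 (17.7-fold lower). The latter was -4.79 without replicate 1 and -3.50 without replicate 2 of its group. The share of all tested probes whose arrays lay wholly below the controls was 7.66% and 10.1% on day 4, 3.16% and 5.38% on day 7 and 7.43% and 9.5% on day 12 after 6.7 and 7.4 Gy, and nothing is read from these shares about ADA, since the set was chosen with its low level known.

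Without the day 7 array that stood apart, the difference from control was -4.05 after 6.7 Gy and -4.08 after 7.4 Gy. In order of their means the 7 groups ran from control through both day 7 groups and both day 4 groups to both day 12 groups. The step from control to the next group, 7.4 Gy on day 7, was 3.05 log2, larger than the SDs on either side of it, although 1 array overlapped. The remaining steps were between 0.03 and 0.48 log2, with overlapping arrays at each, and the step of 0.48 from day 4 to day 12 after 6.7 Gy was the only one of them larger than both SDs.

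The second ADA probe (A_01_P1716236) gave similar differences, except that replicate 2 on day 7 after 6.7 Gy lay just below its lowest control, so that all 4 arrays of that group were below the controls there. Its control levels were 5.00, 2.29, 2.17 and 3.91, and its correlation with the first probe was 0.99 over the 24 arrays. Its differences from control were -3.56 and -3.40 on day 4, -3.36 and -3.01 on day 7 and -3.97 and -3.86 on day 12. On day 7 replicate 2 after 6.7 Gy had a level of 2.17 at this probe and replicate 3 after 7.4 Gy one of 3.52, above the other 6 day 7 arrays, which ran from -1.13 to -0.19.

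Where the arrays lay on the slides moved with the groups. All 4 controls were at position 1 of their slides, as were 2 of the day 4 arrays after 6.7 Gy, and no other irradiated array was. Within position 1 the difference of ADA from control was -3.79 (2 arrays against 4), as large as over all positions. Those 2 arrays were on slides 5 and 6 and scan day 2, and the controls on slides 1 to 4 and scan day 1. Position was thus matched there, but slide and scan day were not. For the other 5 groups position and treatment cannot be told apart in a direct comparison with control. The 12 differences between an irradiated array and the control of the same slide ran from -5.72 to 0.01, with 1 above 0, that of replicate 2 on day 7 after 6.7 Gy. All controls were scanned on day 1, and within that scan day the differences ran from -4.07 to -1.89 over 5 groups. The day 12 group after 7.4 Gy shared no slide and no scan day with a control. The value of -1.89 was that of 7.4 Gy on day 7, with 2 arrays of which replicate 3 was 1.

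The comparisons of later days with day 4 and of the doses ask whether ADA changed after day 4 and with dose. ADA was tested only between groups that the known result did not compare, in the 2 day comparisons after 6.7 Gy and in the dose comparisons on days 7 and 12. All came from 1 model of the 24 arrays, whose spread also draws on the control arrays and the day 4 arrays after 7.4 Gy. After 6.7-Gy TBI the difference of day 7 from day 4 was 0.24 ± 0.81 (SE, limma adjusted p = 0.905) and that of day 12 from day 4 was -0.48 ± 0.99 (limma adjusted p = 0.831). The difference of 7.4 from 6.7 Gy was 0.29 ± 0.81 on day 7 (limma adjusted p = 0.957) and -0.07 ± 1.14 on day 12 (limma adjusted p = 0.999). On day 12 the doses shared no slide and no scan day, so dose and batch cannot be told apart in that direct comparison. None of these differences was called, and leaving out a single array turned 3 of them. Without replicate 2 on day 7 after 6.7 Gy the difference of day 7 from day 4 was -0.46 and that of the doses on day 7 was 1.00, and without replicate 3 on day 7 after 7.4 Gy the latter was -0.73 (-0.03 without replicate 3 after 6.7 Gy). The dose difference on day 12 was 0.19 without replicate 1 after 6.7 Gy and 0.57 without replicate 2 after 7.4 Gy. With these SEs changes of 2-fold in either direction were within the error. The model gives all 7 groups 1 spread, while the SDs of ADA ran from 0.25 to 2.08 between groups. The day 4 and day 12 groups after 6.7 Gy had SDs of 0.25 and 0.38, so the SE of 0.99 does not measure their own spread. Of all tested probes limma called 1.55% and 0.951% in these 2 day comparisons and 0% in each dose comparison. After 7.4 Gy, where no test is given, day 7 and day 12 differed from day 4 by 0.33 and -0.77. The former was -0.70 without replicate 3 on day 7 and, when slide entered as a fixed block, -0.19. The latter was -1.41 without replicate 1 and -0.12 without replicate 2 on day 12.

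Of the 4 measured markers of the proximal small bowel, 2 were called lower on day 4 at both doses. The list held CYBRD1, an iron reductase, the iron exporter SLC40A1, the calcium-binding protein S100G and the transcription factor GATA4, 4 of the 6 genes listed. The 2 called were S100G and GATA4, the latter with changes of -1.01 (limma adjusted p = 0.0355) and -1.20 (limma adjusted p = 0.0215). S100G changed by -3.33 ± 0.39 (SE, limma adjusted p = 0.00653) after 6.7 Gy and by -3.76 ± 0.51 (limma adjusted p = 0.0101) after 7.4 Gy. SLC40A1 differed by 0.13 and 0.42 and was not called. The summed level of the list, dominated by S100G, was 7.95 to 9.27 in the controls and 4.79 to 6.29 over the day 4 arrays.

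On day 7 GATA4 was called higher than on day 4 after 7.4 Gy, by 1.18, and S100G at both doses, by 2.96 ± 0.58 (SE, limma adjusted p = 0.00832) after 6.7 Gy and by 2.96 ± 0.58 (limma adjusted p = 0.00844) after 7.4 Gy. All 8 day 7 arrays lay above all day 4 arrays for S100G and for the summed list. Within a dose, with 4 arrays against 4, 7.21% and 5.83% of all tested probes lay wholly above day 4 after 6.7 and 7.4 Gy. No share was computed for both doses together. Of the 8 day 7 arrays, 4 reached the control range of the summed list. For ADA 2 of the 8 did at the brightest probe and 1 at the second. The 2 arrays with the higher ADA had S100G levels of 8.95 and 9.14, within the control range of 7.85 to 9.22. Replicate 1 after 6.7 Gy had S100G at 8.71 with ADA at 0.72, and replicate 1 after 7.4 Gy had S100G at 8.29 with ADA at 0.99. On day 12 S100G ran from 4.21 to 7.30 over the 4 arrays, all below the lowest control.

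CYBRD1 differed from S100G on day 12, where its means lay above control. It had control levels of 2.05, 3.30, 3.42 and 2.88, and on day 12 it had 3.52 and 4.42 after 6.7 Gy and 3.00 and 4.15 after 7.4 Gy. Its differences from control were -1.24 and -0.45 on day 4, -0.17 and -0.02 on day 7 and 1.06 and 0.66 on day 12, with no call, and on day 12 after 6.7 Gy it was called higher than on day 4, by 2.30 ± 0.48 (SE, limma adjusted p = 0.0242). ADA was low on the same day 12 arrays.

 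The summed level of 7 absorptive enterocyte markers of the 11 listed was 8.00 to 8.50 in the controls, 7.79 to 8.52 on day 4, 6.81 to 8.06 on day 7 and 8.00 to 8.64 on day 12. On day 7, 7 of the 8 arrays lay below the lowest control of this sum, and after 7.4 Gy all 7 markers had means below control, with a median difference of -0.48 and no call. Of the 7, VIL1 was called lower on day 4 after 6.7 Gy, and ANPEP and APOB lower on day 7 than on day 4 after 7.4 Gy. The 5 measured distal small bowel markers of the 6 listed had a summed level of 2.71 to 3.06 in the controls and 2.30 to 6.08 on day 4. FABP6 and SLC10A2, which handle bile acids in the ileum, were called higher on day 4 after 6.7 Gy, by 4.97 and 1.73. SLC51B, of the same list, was called higher on days 7 and 12 than on day 4 after 6.7 Gy, by 1.04 and 1.13. After 7.4 Gy the day 4 difference of FABP6 was 4.61 and missed the threshold (limma adjusted p = 0.0506). On day 12 FABP6 was called higher after 6.7 Gy, by 7.28 ± 0.39 (SE, limma adjusted p = 0.00401), 1 of only 2 probes called in that comparison, and its difference after 7.4 Gy was 3.22, without a call. The summed distal level was 2.96 to 4.36 on day 7, with 7 of the 8 arrays above the control range, and 3.85 to 5.79 on day 12, with all 4 above it. A summed level adds signals, so it follows the brightest genes of its list, here ANPEP and APOB for the enterocytes and SLC51B or FABP6 for the distal list. On day 7 SLC51B ran from 2.82 to 4.00, against 2.60 to 3.00 in the controls. SLC10A2 ran from -6.57 to -3.72 on day 7, against -5.50 to -4.77.

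Markers of other cell types also moved on the arrays with low ADA. Of the 5 measured fibroblast markers of the 6 listed, COL1A2, COL3A1, DCN and LUM were called higher on day 4 after 7.4 Gy, with a list median of 1.14. Their summed level was 5.04 to 6.07 in the controls, 6.33 to 7.42 on day 4 and 4.62 to 6.83 on days 7 and 12. The crypt marker OLFM4 and the macrophage marker CD14 were called higher in the same comparison, by 3.40 and 1.25, each as the only one called of the 5 and 2 measured in its list. The summed level of the 5 crypt and proliferation markers was 2.18 to 2.66 in the controls, 2.33 to 3.62 on day 4 and 2.34 to 3.16 on day 12, and at 2.85 to 4.18 it lay above the control range on all 8 day 7 arrays. The cell cycle genes CCNB1, CDK1 and TOP2A were called higher on day 7 than on day 4 after 7.4 Gy, by 1.13 to 1.20, where OLFM4 differed by -1.37 without a call. The hemoglobin gene HBB was called lower on days 4 and 7 at both doses, with changes of -8.62 to -6.38, while the other 2 erythroid markers measured were not called. No T cell, B cell, endothelial or smooth muscle marker was called against control. After 7.4 Gy the macrophage marker CSF1R and the endothelial marker KDR were called lower on day 7 than on day 4, with changes of -1.01 and -1.03. On day 12 both measured macrophage markers, CD14 and CSF1R, and 2 of the 5 endothelial markers, KDR and VWF, were called lower than on day 4, with changes of -1.95 to -1.14. The part of the segment sampled and of the cell mixture in the result for ADA was not tested.

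**Figure D2:**
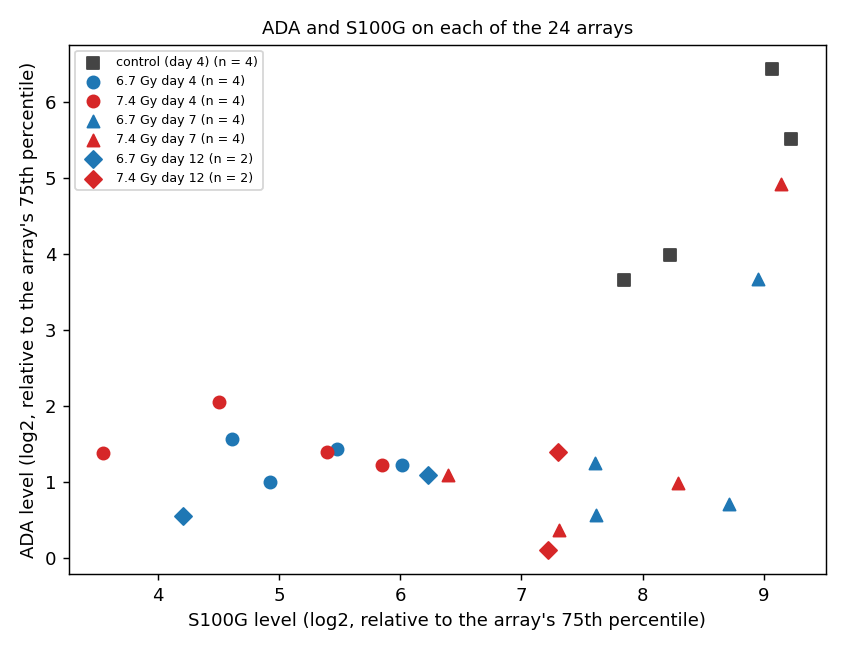
Level of ADA (vertical) against that of S100G (horizontal), both in log2 units relative to the array's 75th percentile, on each of the 24 arrays; colour is dose and shape is day. The 4 controls and 2 of the day 7 arrays lie at the upper right, the day 4 arrays at the lower left with S100G at 3.55 to 6.02, and the other 6 day 7 arrays at the lower right, where S100G is 6.40 to 8.71 and ADA at most 1.25.

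PNP was lower than the control mean on 18 of the 20 irradiated arrays, by 0.15 to 0.85 log2 in the group means, but it was called in no comparison and both day 7 differences turned when 1 array was left out. The brightest PNP probe (A_01_P007596) had control levels of 3.11, 2.21, 2.26 and 2.83. On day 4 its levels were 1.93, 2.16, 1.96 and 2.41 at 6.7 Gy and 1.65, 2.11, 2.35 and 1.99 at 7.4 Gy, with 3 of 4 arrays below all controls at each dose. On day 7 they were 2.80, 2.47, 2.24 and 2.30 at 6.7 Gy and 2.59, 2.31, 3.07 and 1.76 at 7.4 Gy, with 7 of the 8 arrays within the control range. On day 12 they were, after 6.7 Gy, 1.90 and 2.01, and after 7.4 Gy, 2.05 and 1.46, all below the lowest control, as were 7.43% and 9.5% of all tested probes.

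The differences of PNP from control were -0.49 ± 0.23 (SE, limma adjusted p = 0.263) and -0.58 ± 0.24 (limma adjusted p = 0.187) on day 4 after 6.7 and 7.4 Gy. On day 7 they were -0.15 ± 0.23 (limma adjusted p = 0.865) and -0.17 ± 0.31 (limma adjusted p = 0.812), and became 0.02 without control replicate 1 and 0.05 without replicate 4 after 7.4 Gy, respectively. On day 12 they were -0.65 ± 0.29 (limma adjusted p = 0.721) and -0.85 ± 0.33 (limma adjusted p = 0.582). Every step between neighbouring group means was within the larger SD of the pair. The second PNP probe (A_01_P1741791) followed the first with a correlation of 0.97 over the 24 arrays, and its differences from control ran from -0.71 to -0.10. On day 12 after 7.4 Gy 1 of the 2 arrays, at 1.83, lay above its lowest control of 1.63.

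Some arrays were high in both genes. Control replicate 1 had the highest level of both on the 24 arrays, and replicate 3 on day 7 after 7.4 Gy had the second highest PNP, at 3.07, and the third highest ADA. The correlation of PNP with ADA was 0.66 over the 24 arrays and 0.53 over the 20 irradiated arrays. Groups, slides and sensitivity are shared between the points, so this is a description only.

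NT5E, the enzyme that makes adenosine outside the cell, was called in no comparison. Its brightest probe (A_01_P002592) had control levels of -1.57, -1.66, -0.97 and -0.99. On day 4 its levels were -1.57, -1.57, -1.09 and -1.01 at 6.7 Gy and -0.88, -0.40, -0.87 and -1.26 at 7.4 Gy. The last group was the highest of all, with 3 of its 4 arrays above all controls. On day 7 the levels were -1.19, -2.09, -1.46 and -1.72 at 6.7 Gy and -1.30, -2.06, -1.50 and -1.30 at 7.4 Gy, and on day 12 they were, after 6.7 Gy, -0.95 and -2.01, and after 7.4 Gy, -1.81 and -1.44.

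The differences of NT5E from control were between -0.33 and 0.45, with limma adjusted p from 0.279 to 0.985. After 6.7 Gy the direction on days 4 and 12 turned with 1 array: the day 4 difference of -0.01 ran from -0.13 to 0.10 when 1 array was left out, and the day 12 difference of -0.18 was -0.71 without replicate 1 and 0.35 without replicate 2. On day 7 the differences were -0.31 and -0.24 after 6.7 and 7.4 Gy, which became -0.16 and -0.07 without replicate 2 of the group, and without other single arrays they reached -0.45 and -0.36. The day 12 difference of -0.33 after 7.4 Gy was -0.14 without replicate 1 and -0.51 without replicate 2. With position on the slide as a block among the control and day 4 arrays, a setting chosen after seeing the data, the day 4 difference of 0.45 after 7.4 Gy became -0.07. From day 4 to day 7 after 7.4 Gy NT5E differed by -0.69 ± 0.26 (SE, limma adjusted p = 0.135), with all 4 day 7 arrays below all 4 day 4 arrays, as for 4.12% of all tested probes. From day 4 to day 12 after 7.4 Gy it differed by -0.77 ± 0.32 (limma adjusted p = 0.182), with both day 12 arrays below the day 4 arrays, as for 12.7% of all tested probes. These 2 differences did not pass the test. The second NT5E probe (A_01_P1685136) did not repeat the high day 4 values after 7.4 Gy: its difference from control there was -0.21, and its differences from control were -0.77 to -0.21 over the 6 groups, also with no call. The correlation of the brightest NT5E probe with ADA was -0.00 over the 24 arrays.

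**Figure D3:**
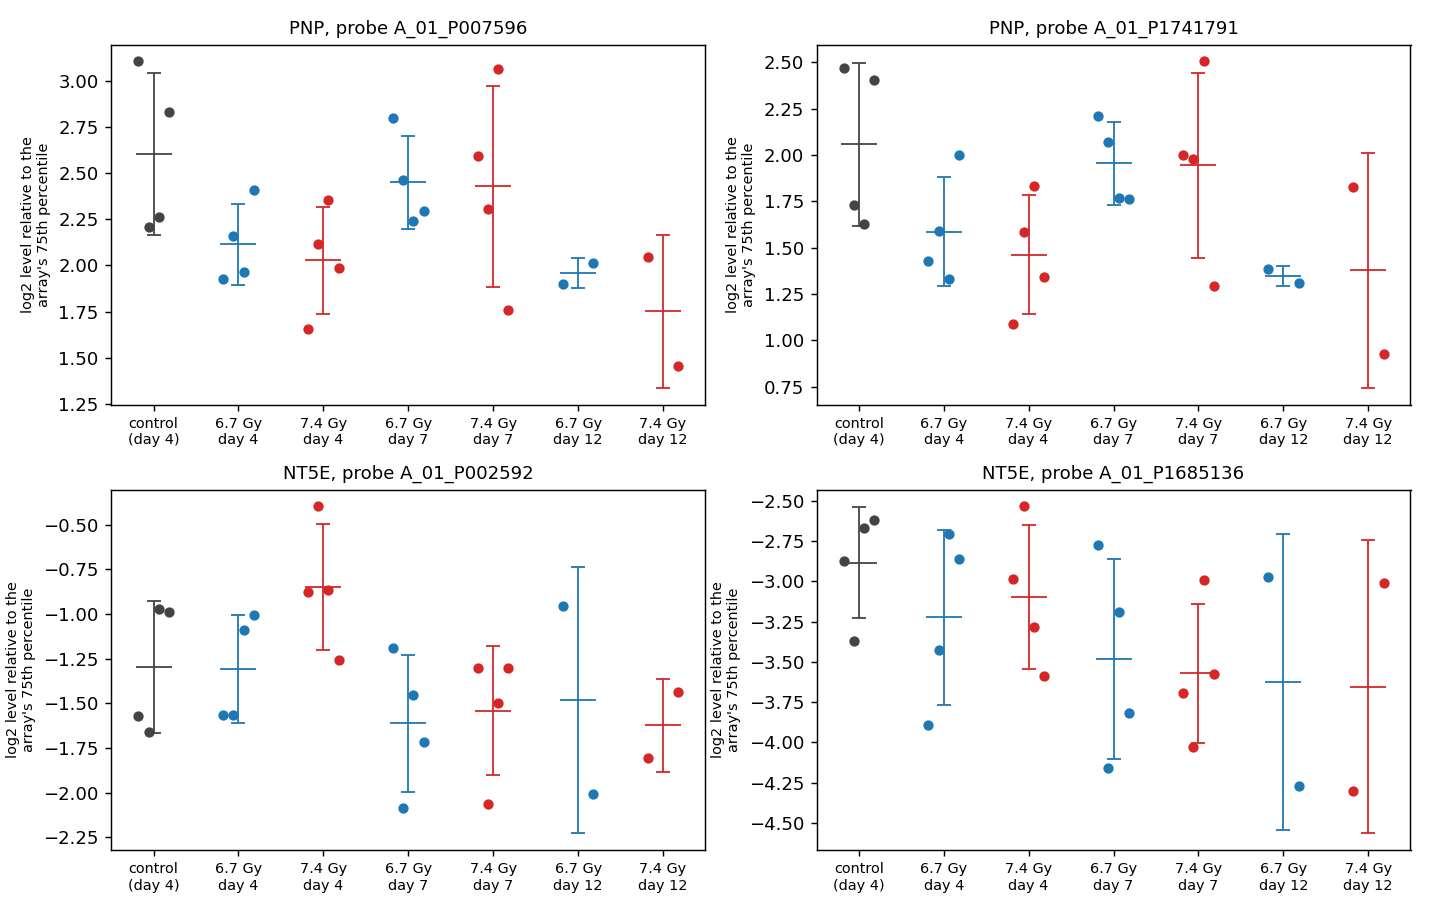
Level of the 2 PNP probes (upper panels) and the 2 tested NT5E probes (lower panels) on each array (points), in log2 units relative to the array's 75th percentile, by group, with the group mean (bar) and SD (whiskers); n = 4 per group, 2 on day 12. At its brightest probe PNP lies between 1.46 and 3.11, with the day 12 arrays below all controls and the other groups overlapping them, while at the second probe 1 day 12 array overlaps. The brightest NT5E probe lies between -2.09 and -0.40, and all its groups overlap the controls.

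Counted together, 0 of the 2 members tested against control, PNP and NT5E, were called in any of the 6 comparisons. Limma called 1.98% and 2.6% of all tested probes on day 4, 0.0639% and 0.288% on day 7 and 0.0071% and 0.00355% on day 12, after 6.7 and 7.4 Gy. At an unadjusted p under 0.05 with 2-fold the count was also 0, where 3.72% and 4.48% of all tested probes passed on day 4, 1.56% and 2.97% on day 7 and 1.83% and 2.55% on day 12. The methods' t-test called 0 members, and of all tested probes 0.55% and 1.07% on day 4, 0% and 0.0745% on day 7 and 0% on day 12. Between days and between doses the count of members, ADA included where it was tested, was likewise 0, where limma called 1.64% and 2.42% of all tested probes for days 7 and 12 against day 4 after 7.4 Gy. At an unadjusted p under 0.05 with 2-fold it was 0 there too, against 3.3% and 4.82% of all tested probes for days 7 and 12 after 6.7 Gy, 3.1% and 6.5% after 7.4 Gy, and 0.277%, 0.735% and 1.88% between the doses on days 4, 7 and 12.

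Genes that feed, share or drain the same pathway were taken from a list of 60 genes in 10 roles. Of these, 43 had a probe and 35 were tested. Against control 0 of the 35 were called in each of the 6 comparisons. The median change of the 35 genes was -0.02 and -0.08 on day 4 after 6.7 and 7.4 Gy, against -0.06 and -0.08 over all tested probes. On day 7 it was -0.04 and 0.10, against -0.00 and -0.03, and on day 12 it was 0.09 and -0.01, against 0.03 and -0.02. At an unadjusted p under 0.05 with 2-fold, 1 gene passed on day 4 at each dose (SLC28A3 after 6.7 Gy, GDA after 7.4 Gy), 0 on day 7, 0 on day 12 after 6.7 Gy and 3 on day 12 after 7.4 Gy (AOX1, NT5C3A and SLC29A3). The methods' t-test called 0 of the 35.

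**Figure D4:**
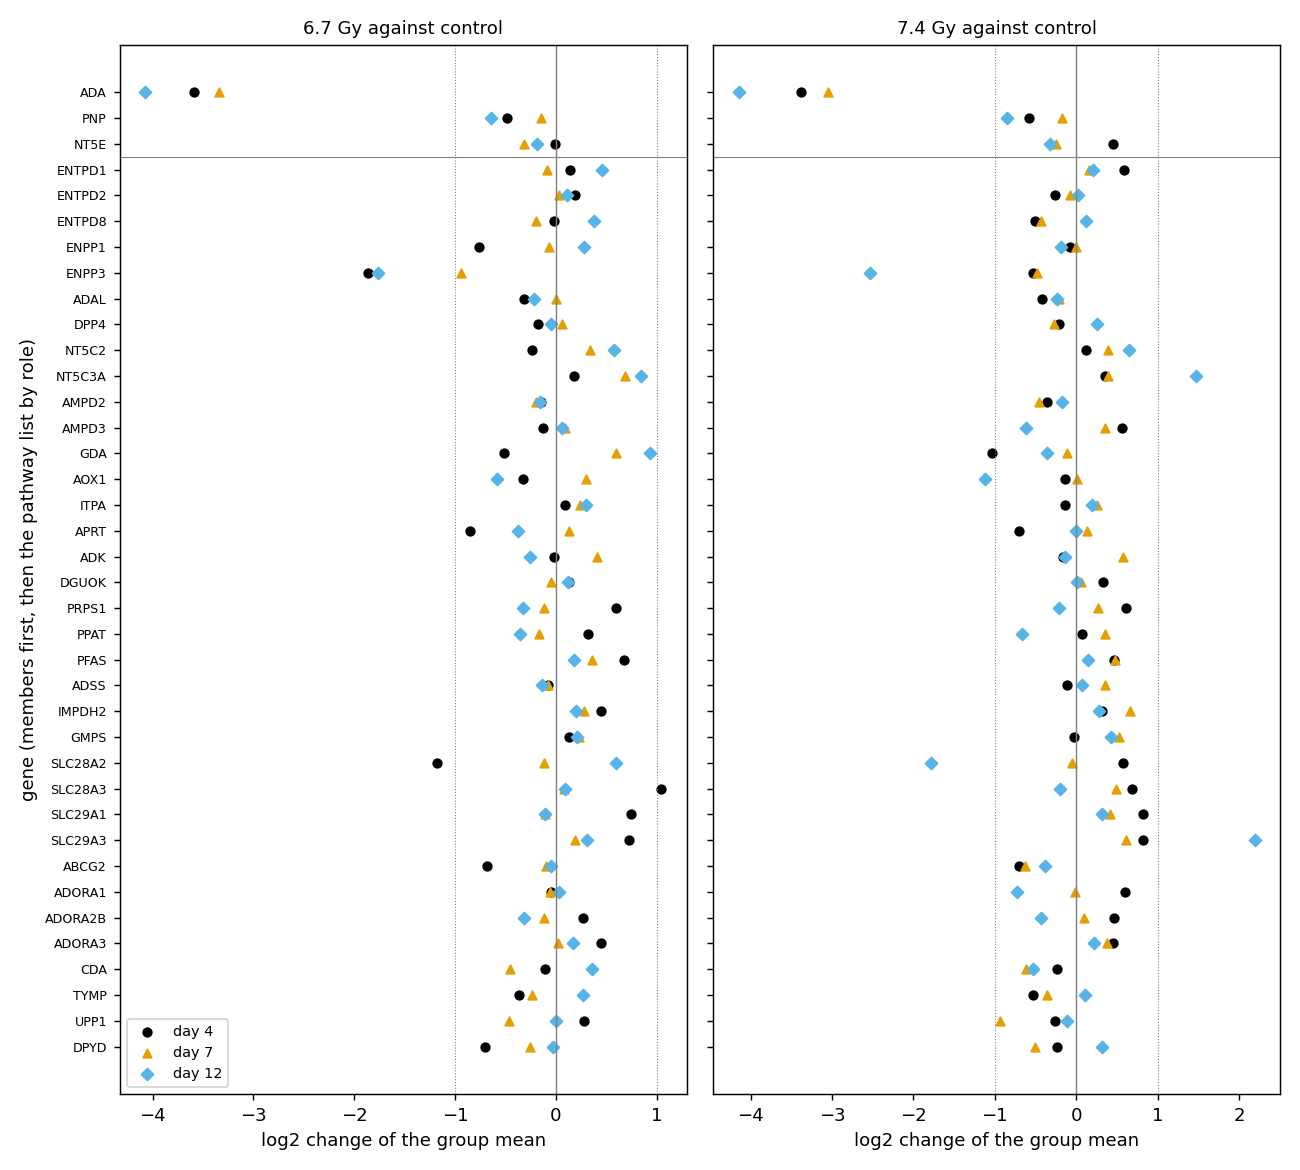
Log2 change of the group mean against control (horizontal) for ADA, PNP, NT5E and the 35 tested pathway genes (rows), after 6.7 Gy (left) and 7.4 Gy (right), on day 4 (circles), day 7 (triangles) and day 12 (diamonds); dotted lines mark 2-fold. ADA lies at -3.05 or below in all 6 groups, and most pathway genes lie between the dotted lines.

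The genes next to ADA in the pathway were not called. DPP4, the surface peptidase that anchors ADA outside the cell, had levels of 1.30, 1.47, 1.18 and 0.97 in the controls and its group means differed from control by -0.27 to 0.25, with limma adjusted p from 0.492 to 0.975. ADAL, an adenosine deaminase-like protein that acts on methylated AMP, differed by -0.42 to -0.00, with limma adjusted p of 0.112 or more. Of the enzymes that break down nucleotides outside the cell, ENTPD8 differed by -0.51 to 0.38. ENPP3 differed by -2.53 to -0.48, but its control levels were -3.04, -1.61, -1.29 and 2.30, with 1 control array above the other 3, and its limma adjusted p was 0.351 or more.

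Among the nucleotidases and deaminases inside the cell, NT5C3A was the only gene of the 35 called in any comparison at its brightest probe. Second probes of APRT, AOX1 and TYMP also passed both limits in a comparison between days, as given below. NT5C3A is a cytosolic 5'-nucleotidase that acts mainly on pyrimidine nucleotides. Its levels were 1.41, 1.78, 1.34 and 1.37 on day 4 after 7.4 Gy and 2.69 and 2.48 on day 12, with no overlap, as for 15.8% of all tested probes. The difference was 1.11 ± 0.30 (SE, limma adjusted p = 0.0454, n = 4 and 2), in a comparison where limma called 2.42% of all tested probes. Its controls lay at 0.85, 1.74, 1.36 and 0.53, below both day 12 arrays, and the difference from control of 1.47 ± 0.35 was not called (limma adjusted p = 0.434). The call on NT5C3A was lost when any of the 6 arrays compared was left out and with 10 other settings, among them normexp, slide or scan day as a fixed block and the 2 groups alone. AMPD2, an AMP deaminase, differed from control by -0.46 to -0.15 with no call.

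APRT and GDA had their lowest group means on day 4 and higher ones on day 7 at both doses, without a call at the brightest probe. APRT, which salvages adenine to AMP, had control levels of 3.18, 3.06, 3.11 and 3.59. On day 4 it had 2.52, 2.23, 2.34 and 2.44 at 6.7 Gy and 2.23, 2.79, 2.50 and 2.57 at 7.4 Gy, all below every control, as for 7.66% and 10.1% of all tested probes. The difference was -0.85 ± 0.16 (SE, limma adjusted p = 0.0263) after 6.7 Gy and -0.71 ± 0.18 (limma adjusted p = 0.0550) after 7.4 Gy. From day 4 to day 7 APRT differed by 0.98 ± 0.17 (limma adjusted p = 0.00361) after 6.7 Gy and by 0.84 ± 0.17 (limma adjusted p = 0.00918) after 7.4 Gy, with 4 of 4 arrays above all day 4 arrays at each dose, as for 7.21% and 5.83% of all tested probes. These differences passed the p limit and not the 2-fold limit. At any fold 3 and 2 of the 35 genes passed the p limit in these comparisons, against 4.32% and 4.77% of all tested probes. The second APRT probe (A_01_P1713851) gave 1.22 (limma adjusted p = 0.00152) from day 4 to day 7 after 6.7 Gy, which would be a call, and -0.65 and -0.30 against control on day 4.

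GDA, which deaminates guanine to xanthine, had levels of 3.28, 2.19, 1.99 and 2.12 in the controls. On day 4 after 6.7 Gy it had 2.36, 1.99, 1.36 and 1.83, overlapping the controls, a difference of -0.51 ± 0.32 (SE, limma adjusted p = 0.391). On day 4 after 7.4 Gy it had 1.09, 1.51, 1.39 and 1.45, all below every control, as for 10.1% of all tested probes, a difference of -1.03 ± 0.28 (SE, limma adjusted p = 0.0668). From day 4 to day 7 it differed by 1.11 ± 0.33 (limma adjusted p = 0.0572) after 6.7 Gy and by 0.92 ± 0.33 (limma adjusted p = 0.107) after 7.4 Gy. It was not called, but the day 4 difference after 7.4 Gy became a call on probes detected on all 24 arrays, with slide or scan day as a block, and with a trended robust variance.

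Other members of the list passed the p limit below 2-fold. At any fold, changes of 2-fold or more included, 3.61% and 5.38% of all tested probes passed it on day 4 after 6.7 and 7.4 Gy. SLC29A3, an equilibrative nucleoside transporter of lysosomes, was higher on day 4 after 7.4 Gy by 0.82 ± 0.16 (SE, limma adjusted p = 0.0274). Named after their values were seen, the nucleoside transporter SLC29A1 and the phosphoribosyl pyrophosphate synthetase PRPS1 were higher there by 0.82 ± 0.20 (limma adjusted p = 0.0480) and 0.61 ± 0.14 (limma adjusted p = 0.0454). PRPS1 was lower on day 12 than on day 4 at both doses, with differences of -0.92 ± 0.21 (limma adjusted p = 0.0327) after 6.7 Gy and -0.82 ± 0.21 (limma adjusted p = 0.0342) after 7.4 Gy. In these comparisons 1 and 3 of the 35 genes passed the p limit at any fold, against 1.32% and 3.75% of all tested probes. All 4 tested nucleoside transporters had means above control on day 4 after 7.4 Gy, by 0.58 to 0.82 with 0 calls, and 3 of 4 after 6.7 Gy. SLC29A3 had levels of -0.24 and 3.41 on the 2 arrays of day 12 after 7.4 Gy.

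The exception after 6.7 Gy was SLC28A2, which carries purine nucleosides into the enterocyte with sodium. Its levels on those 4 arrays were 3.14, -1.35, 2.60 and -0.08, against 2.25, 0.95, 2.62 and 3.20 in the controls. Its arrays scattered within groups, with 2.90, 3.32, 2.96 and 2.15 on day 4 after 7.4 Gy and -1.55 and 2.50 on day 12 after 7.4 Gy. Its limma adjusted p against control was 0.469 or more.

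**Figure D5:**
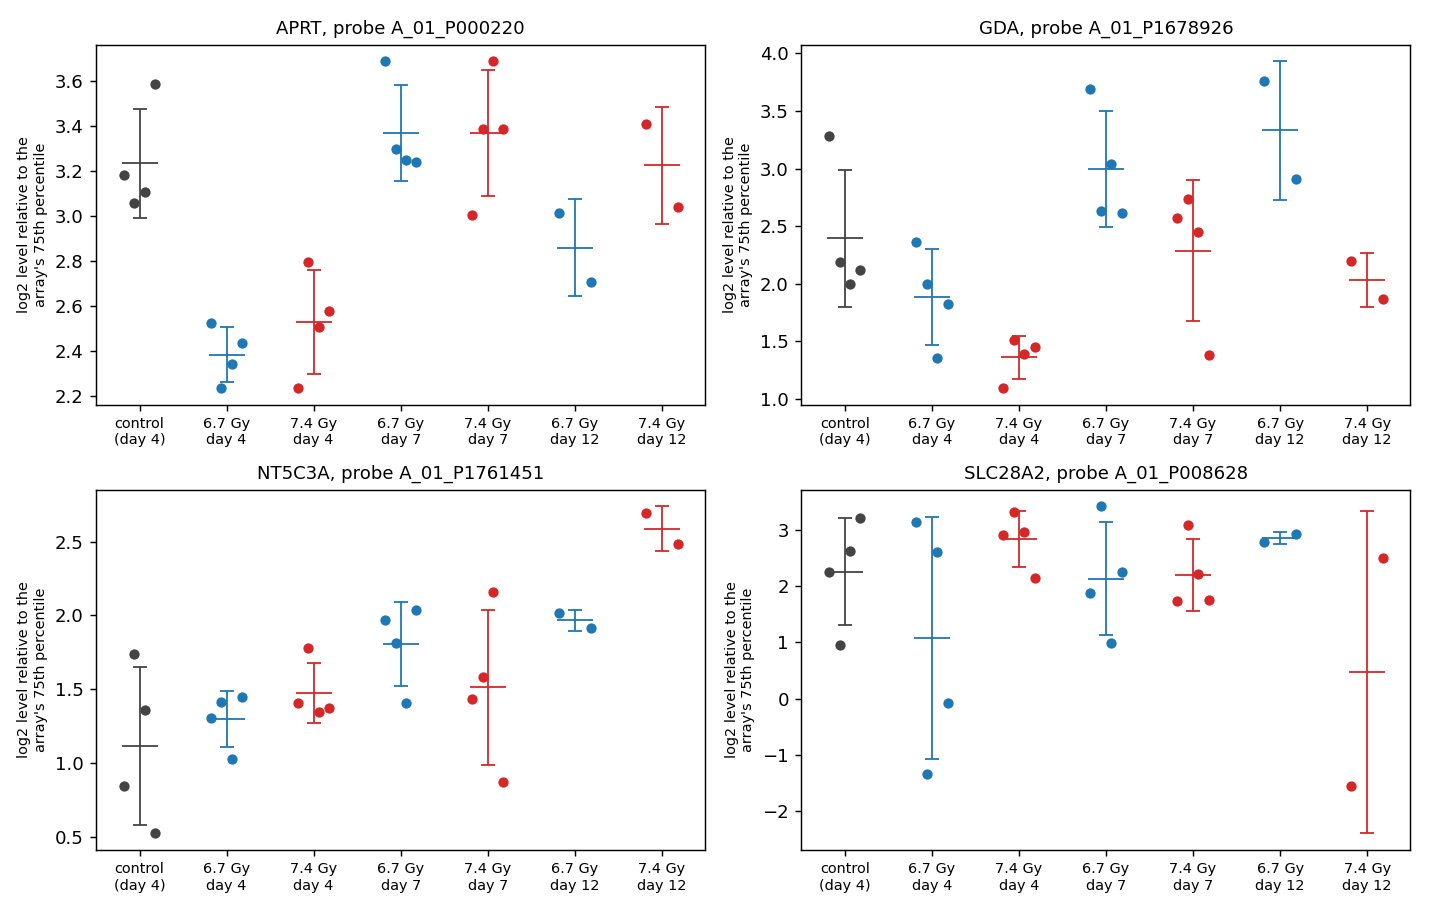
Level of APRT, GDA, NT5C3A and SLC28A2 on each array (points), in log2 units relative to the array's 75th percentile, by group, with the group mean (bar) and SD (whiskers); n = 4 per group, 2 on day 12. APRT lies at 2.23 to 2.79 on day 4 and at 3.00 or above on day 7, while SLC28A2 spans -1.55 to 3.42 with wide scatter within groups.

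AOX1, an oxidase of purines and aldehydes related to XDH, differed between day 12 and day 4 after 7.4 Gy by -0.99 ± 0.25 (SE, limma adjusted p = 0.0364), just short of 2-fold. Its second probe (A_01_P1677866) gave -1.73 (limma adjusted p = 0.0102) in the same comparison. ABCG2, which exports urate, differed from control by -0.70 to -0.05, with limma adjusted p of 0.0927 or more. The enzymes of purine synthesis had means above control for all 5 tested genes on day 7 after 7.4 Gy, by 0.35 to 0.66, with 0 calls. Of these GMPS, which makes GMP, was higher on day 7 than on day 4 after 7.4 Gy by 0.56 ± 0.15 (SE, limma adjusted p = 0.0341), and PFAS differed from control by 0.14 to 0.68 with no call. The adenosine receptors ADORA1 and ADORA3 differed from control by -0.73 to 0.59 and by 0.02 to 0.46 at their brightest probes. Other ADORA3 probes went the other way in every group, A_01_P005840 by -0.64 to -0.01 and A_01_P1767231 by -0.80 to -0.02, with no call. Both ends of the ADORA1 range were groups with a wide spread. On day 4 after 7.4 Gy replicate 3 was at -0.02 and the other 3 at -2.54 to -2.45. On day 12 after 7.4 Gy the only 2 arrays were at -3.87 and -2.52. Of the pyrimidine enzymes TYMP and UPP1, neither was called at its brightest probe, with differences from control of -0.53 to 0.27 and of -0.93 to 0.28. The second TYMP probe (A_01_P1719196) differed from control by -0.75 to 0.87. Between day 12 and day 4 after 7.4 Gy it differed by 1.61 (limma adjusted p = 0.0268), which would be a call.

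The transcripts whose pattern was most like that of ADA were ranked by Pearson correlation with its brightest probe over the 24 arrays, among 7344 symbols well above background on all arrays. The first 5 were ORAI1, a calcium channel (0.82), LOC701270 (0.82), LOC719959 (0.78), GIT1 (0.76) and the malic enzyme ME1 (0.76). The arrays share groups and slides. Over the 20 irradiated arrays alone the correlations were 0.79 for ORAI1, 0.46 for LOC701270, 0.56 for LOC719959, 0.53 for GIT1 and 0.36 for ME1. ORAI1 was highest at 1.58 on replicate 3 of day 7 after 7.4 Gy, the array with the most ADA among the irradiated ones, and ran from 0.78 to 1.51 in the controls.

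For PNP the first 3 were AHCYL1 (0.77), NDUFA4, a protein of the mitochondrial respiratory chain (0.76), and ACOT4, an acyl-CoA thioesterase (0.75). For NT5E they were LOC719021 (0.78), LOC712238 (0.75) and LOC715356 (0.75). None of the 5 symbols nearest to ADA was among the 3 nearest to PNP. Lists this short from 7344 symbols would rarely share one by chance, so nothing is read from it.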

How the data were processed

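Gene expression was measured on 24 Agilent 1-color rhesus arrays. Per the file headers, the authors extracted the intensity of each spot with Agilent Feature Extraction 11.0.1.1 on a grid annotated on rheMac2. The deposited tables hold raw signals and log2 values centred on the 75th percentile of each array and the median of each probe. Their gene symbols named the probes. Spots of a probe were averaged on the log2 scale, and the 75th percentile of the array was subtracted. limma 3.58.1 (lmFit and eBayes, R 4.3.3) was fitted over all 28171 tested probes, for control comparisons on the 2 groups' arrays and otherwise on 1 model of all 24, with Benjamini-Hochberg adjustment. The fit was tested on simulated data. A gene is shown by its brightest probe.

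The members, the gene lists and the tests were chosen with earlier results of these data known. Named pathway genes were all called genes and, in each of the 10 roles, the gene with the highest mean level and the gene with the largest change against control among probes detected throughout the 2 groups compared. The 60-gene list held ENTPD1, ENTPD2, ENTPD3, ENTPD8, ENPP1 and ENPP3 (nucleotide hydrolysis outside the cell), ADAL and DPP4, nucleotidases, AMP deaminases, other breakdown and salvage enzymes, purine synthesis, nucleoside and urate transporters, adenosine receptors and pyrimidine breakdown. No probe sequence or coordinate was used. Each array was 1 animal, the numbers of replicates did not pair the arrays, and the number of arrays limits the precision. No 2 arrays held the same values, with correlations between arrays of 0.937 to 0.984.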

Additional observations from a re-analysis of the deposited data

Results flagged for a closer look

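Among 120 groups of 4 arrays examined (the tested probes of the members and the named pathway genes), 10 held an array whose gap to its nearest neighbour, divided by the range of the group, passed Dixon's critical value for 4 samples, where chance gives about 1 in 20. Replicate 3 on day 7 after 7.4 Gy stood apart at both ADA probes, with a ratio of 0.841 at the brightest (level 4.92 against 1.10 for the next array) and 0.912 at the second (3.52 against -0.54). The high ADA array on day 7 after 6.7 Gy, replicate 2, did not reach the critical value.

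The other 8 were pathway genes. On day 4 after 7.4 Gy, ABCG2 on replicate 1 had a ratio of 0.846 and a level of 3.79, ADORA1 on replicate 3 a ratio of 0.965 and a level of -0.02 against -2.45, and NT5C3A on replicate 2 a ratio of 0.855 and a level of 1.78. On day 4 after 6.7 Gy, ENPP3 on replicate 3 had a ratio of 0.869 and a level of -0.93 against -3.23, and GMPS on replicate 4 a ratio of 0.951. On day 7 after 6.7 Gy, APRT on replicate 1 had a ratio of 0.87 and GMPS on replicate 4 one of 0.968. Among the controls, GDA on replicate 1 had a ratio of 0.85 and a level of 3.28 against 2.19. For no member did all arrays of 1 dose move up and all of the other dose move down on the same day.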

How the results depend on the processing

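Across the settings run, PNP and NT5E were called in no comparison, and the difference of ADA from control kept its direction in all 6 groups, between -4.79 and -2.54. The difference of ADA on day 7 from day 4 after 7.4 Gy, 0.33, turned to -0.19 with slide as a fixed block and ran from -0.70 (without replicate 3 of the day 7 group) to 0.82 when 1 array was left out. After 6.7 Gy the same difference, 0.24, was -0.14 with scan day as a block and ran from -0.46 to 0.57 when 1 array was left out. The dose difference on day 7, 0.29, then ran from -0.73 to 1.00, and that on day 12, -0.07, from -0.72 to 0.57, with 0.70 with scan day as a block. The cause of the turns with slide and scan day was not tested. The day 4 difference of NT5E after 7.4 Gy, never called, ran from -0.21 to 0.65. Leaving out 1 array gave -0.28 to 0.02 and -0.38 to 0.05 for PNP against control on day 7 after 6.7 and 7.4 Gy. The calls of pathway genes rested on few genes near the limits. Against control the count of 0 became 1 (GDA) on probes well above background on all arrays, with slide as a fixed or random block, with scan day as a block, and with trend and robust. For later days against day 4 the count of 1 became 0 with no filter, the 2 groups alone or the methods' t-test. It became 2 with the percentile over probes detected on all arrays, quantile normalization, scan day, trend and robust, or without slide 5, 3 with normexp, probes detected on all arrays or a random slide block, and 5 with a fixed slide block or the mean of all probes. Leaving out 1 array gave 0 to 0 against control, 0 to 5 between days (5 without replicate 4 on day 7 after 7.4 Gy) and 0 to 1 between doses. Without slide 5 the count between doses was also 1 (SLC29A3). The count of members stayed at 0 throughout.

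The replicate block gave 0 calls of members, 0 of pathway genes against control and 1 between days, then of GDA rather than NT5C3A. The deviations of arrays of the same number had a mean correlation of 0.04, with 15 of 62 pairs over 0.1. For arrays of different numbers it was -0.01, with 26 of 182 pairs over 0.1. Each array was 1 animal, so the number does not join samples of the same animal. NT5C3A was called in 6 of 22 settings, with changes of 0.90 to 1.22 and limma adjusted p from 0.0312 to 0.490. Normexp on the mean signal could not be run because the files used here give the median signal, which was used. Position could not be fitted over all arrays, since controls and day 4 share positions 1 and 2 and later days positions 3 and 4. Slide, scan day and position were fitted in models of several groups, chosen after seeing the data, in place of the fits on 2 groups. Day 12 rests on 2 arrays a dose, and controls on day 4 alone.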
